A study of Mus musculus with 20 samples.

Results

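The comparison set the 2 arrays of time point 7 against the 4 arrays of time points 3 and 4, which are 6 of the 20 arrays of a study of glutamine supply in Hepa1-6 cells. Hepa1-6 is an established mouse hepatoma line that keeps some traits of hepatocytes. The cells were grown in flasks in DMEM with 25 mM glucose, 10% CPSR-3 and 1% penicillin-streptomycin, and medium was exchanged in all flasks. Control flasks held 4 mM glutamine throughout, whereas the experimental flasks started at 0 mM, received 4 mM at 24 h, and went through the same change at 48 h and 72 h of a course of 96 h. Each spotted array held RNA of experimental flasks labelled with Cy5 and RNA of control flasks labelled with Cy3, from 10 µg of total RNA per labelling.

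All 3 time points therefore share the same design, and differ by when RNA was taken. When each sample was taken, and whether its experimental flask then held glutamine, is not stated in the labels, so no glutamine level was assigned to any of these time points. Each of the 3 time points had 2 arrays, the second marked r, and nothing says whether r stands for another flask or a repeat hybridisation. The p-values below thus measure the spread between these arrays, which may be technical. The first array of time point 4 carries a channel 2 label that names cells without glutamine, unlike the others. It was treated as a slip, which the sources used here do not settle. Time point 7 was therefore also set against time point 3 alone.

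Glutamine feeds cultured cells with carbon for the tricarboxylic acid cycle, with nitrogen for nucleotides and other amino acids, and with the glutamate used to make glutathione. Cells short of an amino acid are known to phosphorylate the initiation factor eIF2 and to make the transcription factor ATF4, which raises amino acid transporters, synthetases and Ddit3. Faults in protein folding in the endoplasmic reticulum (ER) act through the same branch and, through ATF6 and XBP1, on chaperone genes such as Hspa5.

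Values are log2 ratios, taken as experimental over control, centred on the median of each array. Base 2 and this direction are likely but not stated in the sources used here. If the odd label at time point 4 is a slip, each dye marked the same kind of flask on all 6 arrays. A difference between time points then cancels a constant dye bias of a gene. A gene was tested where it had both values at time point 7 and 3 or 4 values at time points 3 and 4, which gave 3614 genes, 3213 of them with a gene symbol. An array gave between 5555 and 6565 values at time points 3 and 4, and 6082 and 4709 at time point 7, of 17280 probes. Across genes, the arrays of time point 7 correlated with each other at r = 0.689, the arrays of time points 3 and 4 among themselves at 0.499 to 0.703, and the arrays of time point 7 with those of 3 and 4 at 0.220 to 0.458. The difference computed from the first arrays alone and that from the second arrays alone correlated at r = 0.470 (Spearman's rho = 0.324) across 3197 genes, which are not independent replicates.

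More genes were lower than higher at time point 7, and the lower ones differed by more. At a Benjamini-Hochberg adjusted p under 0.05 in limma, 225 of 3614 genes were lower (6.23%) and 68 were higher (1.88%). These are the genes called lower or higher below. The median difference was -0.83 over the lower genes and 0.75 over the higher genes, against -0.01 over all genes tested. A difference beyond 1 on the log2 scale was reached by 75 of the lower genes but by 8 of the higher genes. At an unadjusted p under 0.05 in limma, 14.1% of all genes tested were lower and 9.05% higher. Both values of time point 7 lay below all values of time points 3 and 4 in 641 genes (17.7%) and above all of them in 502 genes (13.9%), and the called genes were all among these. For a single gene, 2 arrays against 4 allow 15 splits, so an exact two-sided permutation test cannot go below p = 0.0667, and the calls rest on the spread that limma shares across genes.

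The count of higher genes was the less stable one. It was 139 when values were centred within blocks of 540 neighbouring probe numbers, 45 and 131 without the first and the second array of time point 4, and 26 and 20 without the first and the second array of time point 7. Against time point 3 alone 215 genes were lower and 68 higher, of 3411 tested. Of the 209 lower and 59 higher genes of the main comparison tested there, 177 and 44 were called again. Among genes named below, Ndufc2, Psmd11, Atp6v0a1, Hp, Zfp36l1 and Aldh1a1 lost their call there. The count of lower genes stayed within 1.5 times of 225 except at 118 and 138 without the first and the second array of time point 7, and at 114 in a fit to all 20 arrays, where that of higher genes was 18. Where 1 array of time point 7 was left, it was assumed to vary like the other arrays.

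**Figure D1:**
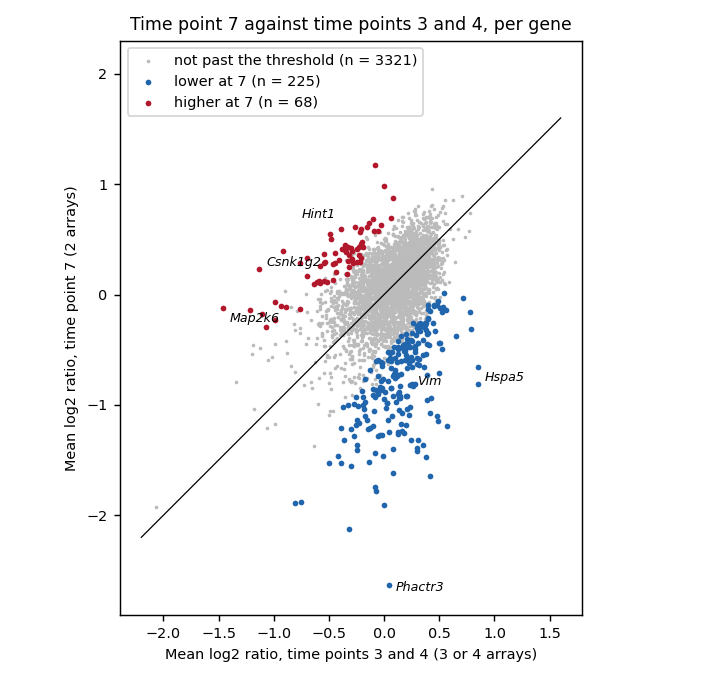
Mean centred log2 ratio of each of the 3614 genes tested at time point 7 (vertical axis, 2 arrays) against time points 3 and 4 (horizontal axis, 3 or 4 arrays), with the line of equal values. The 225 lower genes reach down to a mean of -2.63 for Phactr3, while the 68 higher genes lie mostly left of 0 on the horizontal axis.

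The largest differences were downward. Among genes with a symbol, which are the ones ranked here, the 10 lowest differed by -2.68 to -1.69, and 1 unnamed probe, given further on, lay among them at -1.71. Of these 10 genes, all but Hoxb4 had a mean ratio between 0 and 0.57 at time points 3 and 4, and all had one below -1 at time point 7. Values are given in the order first and second array of time point 3, first and second of time point 4, and after that first and second of time point 7. Phactr3, which binds actin and protein phosphatase 1, had log2 ratios of 0.01, 0.14, 0.065 and -0.04 at time points 3 and 4 and of -2.33 and -2.94 at time point 7. The 4 earlier values lie within 0.2 of each other, and both later values lie far below them. The difference was -2.68 (SE 0.17, 95% interval -3.05 to -2.31, limma adjusted p = 3.6e-07), a 6.4-fold lower ratio. Sft2d1, a membrane protein of the Golgi and its vesicles, had 0.33, 0.38, 0.475 and 0.47, then -1.24 and -2.04. Its difference was -2.05 (SE 0.19, limma adjusted p = 9.23e-06), with no overlap between the groups although the 2 later values are 0.8 apart.

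Cnih2, a cornichon protein that accompanies AMPA glutamate receptors, had -0.10, 0.03, 0.145 and -0.07, then -2.08 and -1.73. Necap2, which works with clathrin adaptors in endocytosis, had 0.39, 0.38, 0.485 and 0.27, then -1.24 and -1.70. Both genes were flat over time points 3 and 4 and lower by more than 3.5-fold at time point 7, with differences of -1.91 (SE 0.16) and -1.85 (SE 0.16). A pair of homeobox genes followed. Hoxb4 had -0.18, -0.48, -0.095 and -0.53, then -1.92 and -2.33, and Hoxa10 had 0.25, 0.39, 0.425 and 0.35, then -1.12 and -1.6. Hoxb4 was thus already below 0 at time points 3 and 4 and Hoxa10 above 0, and the groups did not overlap in either gene. The differences were -1.80 (SE 0.18) and -1.71 (SE 0.16).

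Of the other genes among these 10, Pds5a regulates cohesin, Lypd3 is a surface protein anchored by a lipid, Map3k3 is a kinase at the head of MAP kinase cascades and Lmnb1 is the B-type lamin of the nuclear envelope. Their mean ratios were between 0.08 and 0.57 at time points 3 and 4 and between -1.61 and -1.20 at time point 7, and their differences were -1.76, -1.71, -1.70 and -1.69. For Lmnb1 the 6 values were 0.50, 0.33, 0.195 and 0.15, then -1.50 and -1.29. All 10 genes had a limma adjusted p of 4.28e-05 or less, and all 10 were called under each of the 20 other settings tried, with a lowest size of 1.38 for Map3k3.

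**Figure D2:**
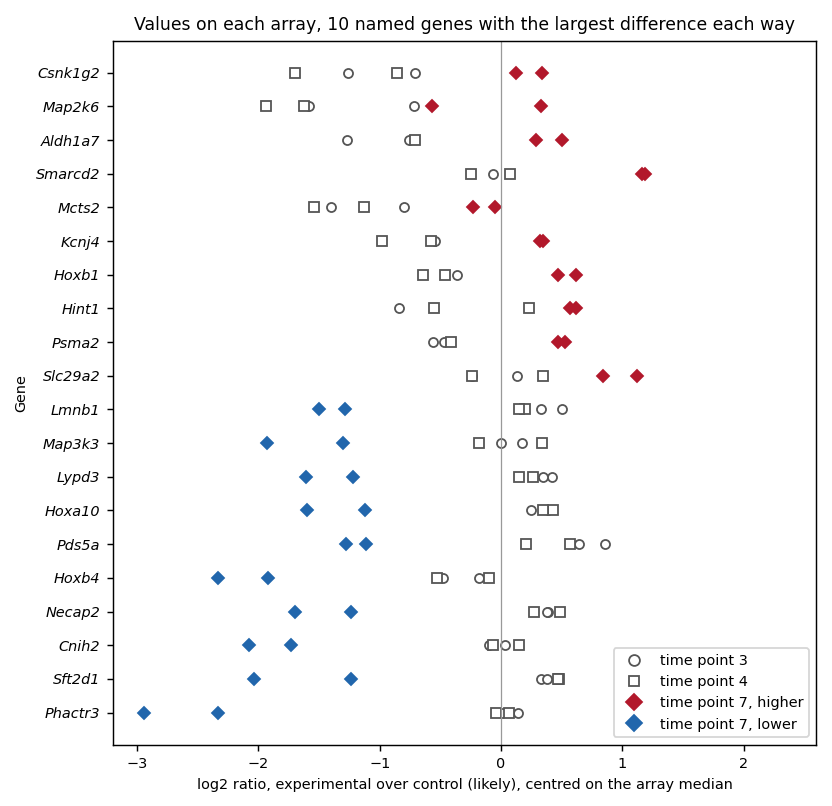
Centred log2 ratios on each of the 6 arrays for the 10 genes with a symbol that had the largest differences in each direction; open circles are time point 3, open squares time point 4 and filled diamonds time point 7. Diamonds lie outside the range of the open symbols in all 20 genes, narrowly for Map2k6, where -0.57 stands next to -0.72.

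Further genes far down this list are known mainly from other tissues than liver. They are named here after their values were seen, for what they encode. The cytokine Il25 differed by -1.59, the heart ventricle homeobox gene Irx4 by -1.56, the sperm flagellum protein Tekt1 by -1.44, the neural transcription factor Sox21 by -1.23 and the epithelial keratin Krt76 by -1.08. A ratio shows a change and not a level, and spot intensities were not used here, so these values do not say that the genes were expressed at a level above the background of the array.

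Higher genes had mostly been below 0 at time points 3 and 4. Csnk1g2, a casein kinase 1 isoform, had log2 ratios of -1.26, -0.71, -1.695 and -0.86 at time points 3 and 4, then 0.12 and 0.34. It was far below the array median earlier and slightly above it at time point 7, a difference of 1.36 (SE 0.22, 95% interval 0.88 to 1.84, limma adjusted p = 0.00118). Map2k6, the kinase that activates p38, had -1.58, -0.72, -1.935 and -1.62, then -0.57 and 0.33. The groups were apart by only 0.15 and the later values by 0.9, and the difference was 1.34 (SE 0.28, limma adjusted p = 0.00649).

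Aldh1a7, an aldehyde dehydrogenase, had -1.27 and -0.76 at time point 3, no value on the first array of time point 4 and -0.71 on the second, then 0.50 and 0.29. Its relative Aldh1a1, which oxidises retinal, had -0.21, -0.08, -0.535 and -0.56, then 0.37 and 0.40. Both relatives moved from below to above the array median, by 1.31 (SE 0.19) and 0.73 (SE 0.17). Smarcd2, a subunit of SWI/SNF chromatin remodelling complexes, had -0.07, 0.075 and -0.25 on 3 arrays, then 1.16 and 1.19. It was the highest gene at time point 7 among those called, and its difference was 1.26 (SE 0.17, limma adjusted p = 0.000231).

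The remaining genes of the 10 with a symbol and the largest upward differences were Mcts2, Hoxb1, Kcnj4, Hint1, Psma2 and Slc29a2, at 0.98 to 1.08, and the unnamed probe_13598 differed by 1.06. Hoxb1 is a homeobox gene, Kcnj4 an inward rectifier potassium channel, Hint1 a nucleotide hydrolase and Slc29a2 a nucleoside transporter of the cell surface. Mcts2 is a retrogene whose sequence is close to that of Mcts1, so its spot may also have bound that transcript. Hint1 had -0.84, -0.555 and 0.23 on 3 arrays, then 0.62 and 0.57, so that its earlier values spread over more than its distance from the later ones. Aldh1a7, Smarcd2, Hoxb1, Kcnj4 and Psma2 were called under all settings in which they had enough values. Without the second array of time point 7, Csnk1g2 (difference 1.25, limma adjusted p = 0.0574), Map2k6 (0.89, 0.181), Mcts2 (0.99, 0.0655) and Hint1 (1.01, 0.14) were not called, and without the first, Slc29a2 (0.84, 0.0968) and Hint1 (0.96, 0.186) were not. Hint1 also missed without the first array of time point 4 (limma adjusted p = 0.056).

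Hspa5, also called BiP, is the main chaperone of the ER and the standard marker of its stress response. Its promoter is shown because it holds the ER stress response element and because the interleukin 1 receptor gene Il1r1, which followed Hspa5 closely, was compared with it. The element was searched on both strands as CCAAT, 9 bases of any kind and CCACG, and its letters are in capitals. Both windows run from 250 bases before to 50 bases after the start of the gene, from RefSeq on GRCm38.p6, and lie on the plus strand at chr2:34771840-34772139 for Hspa5 and at chr1:40224830-40225129 for Il1r1.
Hspa5: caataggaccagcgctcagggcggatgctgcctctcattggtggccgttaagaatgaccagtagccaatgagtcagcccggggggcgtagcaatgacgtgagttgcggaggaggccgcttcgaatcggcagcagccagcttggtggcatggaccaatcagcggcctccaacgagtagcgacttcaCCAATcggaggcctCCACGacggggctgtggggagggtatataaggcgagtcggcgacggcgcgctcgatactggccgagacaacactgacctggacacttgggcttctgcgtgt
Il1r1: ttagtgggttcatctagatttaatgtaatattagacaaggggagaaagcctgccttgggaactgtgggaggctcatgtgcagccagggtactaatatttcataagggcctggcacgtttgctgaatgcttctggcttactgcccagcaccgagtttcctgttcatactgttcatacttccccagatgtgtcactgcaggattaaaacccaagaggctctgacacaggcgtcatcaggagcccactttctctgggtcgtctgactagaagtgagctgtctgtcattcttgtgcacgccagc

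On the 4 arrays of time points 3 and 4, Hspa5 had log2 ratios of 0.96, 0.48, 0.845 and 1.11, and at time point 7 it had -0.66 and -0.97. It was among the highest genes earlier and well below the array median later, with no overlap. The difference was -1.66 (SE 0.18, 95% interval -2.05 to -1.27, limma adjusted p = 3.01e-05), a 3.17-fold lower ratio, and it was called under all 20 other settings. Of the list of ER chaperones and unfolded protein response genes, 11 were tested and the median was 0.09. Hspa5 was the one called, where 6.23% of all genes were lower. With centring within blocks 2 more were called, Ern2, a sensor of the response, at -0.61 (limma adjusted p = 0.00867, against 0.106 with array medians) and Sec61b, of the ER translocation channel, at 0.53 (0.0159, against 0.0667). The ER stress response element is rare. It was present in a promoter window of 37 of 27025 genes (0.137%) and of 8 of 2564 tested genes with a window (0.312%). Among these 8, Hspa5 was the one called. Canx and Pdia6, a lectin chaperone and a disulphide isomerase of the ER, differed by 0.35 (SE 0.17, limma adjusted p = 0.23) and 0.09 (SE 0.17, 0.807). Creld2 and Derl3, which are also genes of the ER stress response, differed by -0.16 (SE 0.16, 0.6) and 0.03 (SE 0.15, 0.923). Ptgdr2, Tdrd9 and Xlr3c, which are not known as ER genes, had differences of 0.45, 0.31 and -0.53.

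Hspa5 also varied beyond these time points. It was at -0.48 and 1.00 on the first and second array of time point 8, on either side of the array median, and at -1.35 on the array of time point 11, lower than at time point 7. Il1r1 had 1.08, 0.69, 0.745 and 0.89 at time points 3 and 4, then -0.64 and -0.68, a difference of -1.51 (SE 0.16, limma adjusted p = 1.7e-05). By the likeness measure used, Pearson's r over the arrays outside the 6 compared, Il1r1 came first of 3078 genes with r = 0.929 over 12 arrays, against a median of 0.04 over those genes. It had -0.68 and 0.88 on the arrays of time point 8 and -1.53 at time point 11. The Il1r1 window shown is 1 of 2 windows of this gene, and neither has such an element. On the array, the 2 genes were spotted at the same place, 421, of blocks 17 and 19 of 540 probe numbers each, and whether this has a part in their likeness was not tested.

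**Figure D3:**
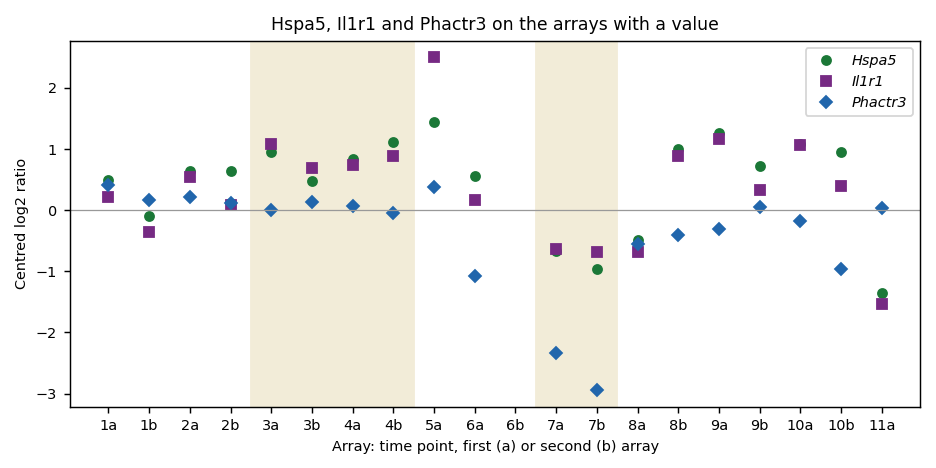
Centred log2 ratios of Hspa5 (circles), Il1r1 (squares) and Phactr3 (diamonds) on the arrays with a value, in time order, with time points 3, 4 and 7 shaded. Hspa5 and Il1r1 lie close together on most arrays, and both return to low values on the first array of time point 8 and at time point 11, while Phactr3 is lowest at time point 7.

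None of 10 tested members of the list of ATF4 and the response to lack of amino acids was called with array medians. At an unadjusted p under 0.05 in limma, 2 were lower and 0 higher, against 14.1% and 9.05% of all genes. The median difference of the 10 was -0.16. Ddit3, the transcription factor CHOP that ATF4 raises, had 0.31, 0.25, 0.315 and 0.69, then 0.04 and -0.36. Its groups did not overlap, but the difference of -0.55 (95% interval -0.92 to -0.18) had a limma adjusted p of 0.0667. Cebpb, another transcription factor of this response, had -1.13, -0.19, -0.195 and -1.04, then -1.73 and -1.02, with overlap, and differed by -0.74 (-1.31 to -0.17, 0.106). Both genes were called lower under some other settings: Ddit3 with centring within blocks (-0.62, limma adjusted p = 0.00634), against time point 4 alone (0.0395) and in the fit to 18 arrays (0.0285), and Cebpb without the first array of time point 3 (-0.90, 0.0196) or the second of time point 4 (-0.87, 0.0344) and in 3 further settings (0.00915 to 0.0332). The synthetases Asns and Glul, which make asparagine and glutamine, had no value on the 6 arrays. The glutamine transporters Slc38a2 and Slc1a5 had 1 and 4 values and were not tested.

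Among 7 tested genes of glutamine and glutamate metabolism none was called, and the median was 0.12. At an unadjusted p under 0.05 in limma, 1 was higher and 1 lower, against 9.05% and 14.1% of all genes. Shmt1, which makes glycine and one-carbon units from serine, had 0.06, -0.49, -0.595 and 0.11, then 0.38 and 0.33, a difference of 0.58 (95% interval 0.16 to 1.01, limma adjusted p = 0.0887). It was called without the first array of time point 3 (0.68, limma adjusted p = 0.0434) or the second of time point 4 (0.70, 0.0217) and in the fit to 18 arrays (0.0201). Got1, the cytosolic aspartate aminotransferase, had 0.16, -0.08, 0.185 and 0.24, then -0.17 and -0.46, a difference of -0.44 (-0.78 to -0.10, 0.105). Values of 7 and of 3 and 4 were apart in both genes, in opposite directions. Of the 4 tested amino acid transporters none was called or passed at an unadjusted p under 0.05. Slc3a2 and Slc7a5, the 2 chains of the large neutral amino acid exchanger, differed by -0.24 (-0.65 to 0.16) and 0.14 (-0.20 to 0.47).

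Among genes of energy metabolism, calls are given by list, beside 6.23% lower and 1.88% higher over all genes. In oxidative phosphorylation 3 of 22 tested genes were higher and 2 lower, with a median of 0.13. Ndufb5 and Ndufc2, subunits of complex I, were lower. Ndufb5 had 0.19, 0.29, 0.245 and 0.17, then -0.94 and -1.25, and was the furthest from its earlier values in this list, by -1.32 (SE 0.15, limma adjusted p = 4.64e-05), whereas Ndufc2 differed by -0.68. The subunits Atp5g2 and Atp5o of ATP synthase were higher by 0.80 and 0.68, and Cox6c of complex IV by 0.63. Atp5g2 had -0.20, -0.51, -0.525 and -0.30, then 0.59 and 0.24, on either side of the array median. Ndufb5 was called under all 20 other settings. Atp5g2 missed without the first array of time point 7 (limma adjusted p = 0.116), Ndufc2 without the second (0.134), and Atp5o without either (0.176 and 0.0858) or without the second array of time point 3 (0.0817).

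In glycolysis Tpi1, triose phosphate isomerase, was higher and Pgam2, a phosphoglycerate mutase known from muscle, was lower, of 10 genes tested, 8 of which had a difference above 0. Tpi1 had -0.69, -0.47, -0.865 and -0.51, then 0.14 and 0.05, and moved up by 0.73 (SE 0.16, limma adjusted p = 0.00897). Pgam2 moved down by 0.59, from a mean of 0.25 to -0.34. Fbp1, the fructose bisphosphatase of gluconeogenesis, was lower by 0.70, Idh2, the mitochondrial isocitrate dehydrogenase that makes NADPH, by 0.66, and Acaa1a, the thiolase of peroxisomal fatty acid oxidation, by 0.85. Each of the last 3 was the one gene called in its list, of 7, 12 and 7 tested. Over all genes 6.23% were lower and 1.88% higher. Without the first or the second array of time point 7, respectively, the limma adjusted p was 0.101 and 0.0655 for Tpi1, 0.267 and 0.087 for Pgam2, 0.208 and 0.0969 for Fbp1, and 0.236 and 0.115 for Idh2, and that of Acaa1a was 0.122 without the second. Pgam2 missed as well without the first or the second array of time point 3 or the first of 4 (up to 0.0997), Fbp1 without the second of 3 or the first of 4 (up to 0.103) and Idh2 without the first or the second of 3 (up to 0.0848). No gene was called among 5 of the hypoxia response and 4 of lipid synthesis, with medians of 0.37 and 0.05. At an unadjusted p under 0.05 in limma, 3 and 0 were higher and 0 and 0 lower. The shares over all genes were 9.05% higher and 14.1% lower at that threshold.

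Genes of protein synthesis and breakdown were called in both directions, as over all genes (6.23% lower, 1.88% higher). Cytosolic ribosomal proteins had a median difference of 0.29 over 41 tested genes, 31 of them above 0, against 49.1% above 0 over all genes. Of these 41, 1 gene, Rps24 of the small subunit, was called. At an unadjusted p under 0.05 in limma, 10 were higher and 2 lower, against 9.05% and 14.1% of all genes. Rps24 had -0.03, 0.04, -0.215 and 0.51, then 1.00 and 0.75, a difference of 0.80 (SE 0.19, limma adjusted p = 0.015). With values centred within blocks of probe numbers, 5 ribosomal genes were called, all higher. By array, the median of the list was 0.01, 0.04, 0.01 and 0.24 at time points 3 and 4 and 0.39 and 0.13 at time point 7, so that the second array of time point 4 lay above the second of time point 7. Without the first or the second array of time point 7, Rps24 was not called (limma adjusted p = 0.188 and 0.0728).

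Eif2s2, the beta subunit of the initiation factor eIF2, had -0.02, -0.03, -0.055 and -0.53, then -1.30 and -0.97, a difference of -0.98 (SE 0.18, limma adjusted p = 0.00258). It stood well below its earlier range at time point 7. Wars, the tryptophanyl-tRNA synthetase, was lower by 0.65, and these were the 2 genes called of 21 translation factors and synthetases, whose median was 0.06. Mrpl34, of the mitochondrial ribosome, was lower by 0.67 and was the one called of 17 in its list. Of all genes 6.23% were lower. Eif2s2 missed without the first array of time point 7 (limma adjusted p = 0.0835), Mrpl34 without the second (0.101), and Wars without the second (0.186), without the first array of time point 3 (0.0528) or of time point 4 (0.0693).

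Proteasome genes were called in both directions, and the shares over all genes were 6.23% lower and 1.88% higher. Psma2, an alpha subunit of the core particle, had -0.56, -0.47 and -0.415 on 3 arrays, then 0.53 and 0.47, a difference of 0.98 (SE 0.16, limma adjusted p = 0.00125). Psmb9, the catalytic subunit that replaces a constitutive one in the immunoproteasome, had 0.35, 0.49, 0.285 and -0.08, then -1.04 and -0.62, a difference of -1.09 (SE 0.18, 0.00128). The groups did not overlap in either gene. Of the regulatory particle, Psmd11 was higher by 0.78 and Psmd1 was lower by 0.63. These were the 4 genes called of 17 tested, with a list median of 0.19. Psmb9 was also the one gene called of 7 in the list of interferon response and antigen presentation, whose median was -0.31. In lysosomes Ctsa, the protective protein cathepsin A, was higher by 0.79 and Atp6v0a1, of the proton pump, lower by 0.55, of 16 tested. When 1 array of time point 7 was left out, limma adjusted p values reached 0.0584 for Psmb9, 0.129 for Psmd11, 0.164 for Psmd1, 0.0835 for Ctsa and 0.258 for Atp6v0a1. Psmd1 and Atp6v0a1 also missed without the first array of time point 3 (0.0722 and 0.0805) and without the first of time point 4 (0.0733 and 0.0893), and Atp6v0a1 without the second of time point 3 (0.0795).

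In membrane traffic 3 of 33 tested genes were lower and 0 higher, against 6.23% and 1.88% of all genes. Copb2, a subunit of the COPI coat that returns vesicles from the Golgi to the ER, had 0.56, 0.48, 0.655 and 0.90, then -0.17 and -0.59. It went from clearly above to below the array median, by -1.03 (SE 0.17, limma adjusted p = 0.00128). Sec31a, of the COPII coat that carries cargo out of the ER, had 0.78, 0.56, 0.365 and 0.32, then -0.18 and -0.07, a difference of -0.63 (SE 0.17, 0.0261). Arl1, a small GTPase of the trans-Golgi, differed by -0.58. The list median was -0.09, or 0.01 with centring within blocks. Copb2 missed without the second array of time point 7 (limma adjusted p = 0.0565), and Sec31a and Arl1 without either (0.0912 to 0.183) and without the first array of time point 3 (0.0769 and 0.0553). Sec31a also missed without the second of time point 3 (0.0546).

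Genes of structural proteins of the cell were also called in both directions, against 6.23% lower and 1.88% higher over all genes. Of 28 cytoskeleton genes, 3 were lower and 2 higher, with a median of 0.19. The intermediate filament gene Vim had 0.33, 0.59, -0.035 and 0.06, then -0.76 and -0.88, a difference of -1.06 (SE 0.18, limma adjusted p = 0.00154), and kept its call under all 20 other settings. The smooth muscle actin gene Acta2 had -0.03, -0.08, 0.125 and 0.35, then -0.82 and -0.62, and differed by -0.81 (SE 0.16, 0.00509). Both were below all their earlier values, as was Lmnb1, given above. The beta tubulin gene Tubb5 was higher by 0.83 and the alpha tubulin gene Tuba1b by 0.52, and tubulin genes are similar enough that a spot may bind the transcripts of several. Without the first array of time point 7, Acta2 had a limma adjusted p of 0.0951, and without the second, Tubb5 had 0.101.

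Vim and Acta2 are also markers of stellate cells and fibroblasts. Of the 14 genes of that list 5 were tested and 2 were lower, against 6.23% of all genes. The list median by array was between 0.01 and 0.24 at time points 3 and 4 and -0.28 and -0.47 at time point 7. The collagen gene Col1a2 differed by -0.04, and Col3a1, Des, Pdgfra, Lum and Tagln had no value on the 6 arrays. The part of other cell types in these values was not tested. None of the 6 liver markers tested was called, and in limma 1 was higher and 1 lower at an unadjusted p under 0.05. Apoa1, Apoc3 and Hnf4a differed by 0.06, -0.05 and -0.10, and Tdo2 by 0.16. Foxa1 differed by -0.45 and Krt8 by 0.385, without overlap between the groups in either gene. Alb had 4 values on the 6 arrays and was not tested. Afp, Foxa2, Foxa3, Arg1 and Ttr had no value on the 6 arrays. Of the 2 macrophage and blood, 2 endothelial and 4 bile duct markers tested, none was called. At an unadjusted p under 0.05 in limma, 0, 0 and 1 were higher and 0, 2 and 1 lower. At that threshold 9.05% of all genes were higher and 14.1% lower.

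Of 11 liver plasma proteins 2 were lower, as were 1 of 5 acute phase genes, 2 of 7 immediate early genes and 1 of 15 cytosolic chaperones, against 6.23% of all genes. None of these lists had a gene called higher. The copper carrier ceruloplasmin, Cp, had 0.15, -0.13, -0.215 and 0.16, then -0.64 and -0.90, a difference of -0.76 (SE 0.17, limma adjusted p = 0.00859). Vitronectin, Vtn, differed by -0.65 and haptoglobin, Hp, of the acute phase list, by -0.52. Jun, of the AP-1 transcription factor, had -0.02, 0.10, -0.315 and -0.46, then -0.98 and -0.97, a difference of -0.80 (SE 0.17, 0.00848). Zfp36l1, which marks messenger RNAs for decay, differed by -0.76. Both belong to the immediate early response. St13, a cochaperone of Hsp70, differed by -0.85. Without the first or the second array of time point 7, respectively, limma adjusted p values were 0.0951 and 0.085 for Jun, 0.173 and 0.0981 for Zfp36l1, 0.212 and 0.0584 for St13, 0.281 and 0.0888 for Vtn and 0.138 and 0.143 for Hp. That of Cp was 0.121 without the second. Vtn and Hp also missed without each of 3 arrays of time points 3 and 4 in turn (limma adjusted p up to 0.0925 and 0.104). The second of time point 4 was the exception. Both genes missed as well with arrays scaled to 1 spread.

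In the glutathione and antioxidant list the transferases Gsto1 and Gstt2 were lower by 0.68 and 0.65. The peroxiredoxin Prdx1 was higher by 0.62, of 13 tested, where 6.23% of all genes were lower and 1.88% higher. Gstt2 had 0.57, 0.26, 0.375 and 0.29, then -0.29 and -0.26, on either side of the array median and clearly apart. Prdx1 had -0.20, -0.31, -0.435 and 0.18, then 0.30 and 0.56, with a gap of only 0.12 between the groups. Ybx3, an RNA-binding protein, was lower by 0.62, of 26 genes of splicing and RNA binding, and Kdm5c, a histone demethylase, was higher by 0.63, besides Smarcd2, of 16 chromatin genes. Gsto1, Gstt2, Prdx1, Ybx3, Kdm5c and Aldh1a1 were not called when either array of time point 7 was left out, with limma adjusted p values of up to 0.207, 0.102, 0.257, 0.139, 0.138 and 0.106. Among arrays of time points 3 and 4, Prdx1 missed without the first or the second of 3 or the first of 4 (up to 0.134), Ybx3 without the second of 3 or the first of 4 (up to 0.0629), Kdm5c without the second of 3 or of 4 (up to 0.0855) and Gsto1 without the second of 4 (0.0821). Processing mattered too. Gsto1 missed with centring within blocks and with arrays scaled to 1 spread, Ybx3 with centring within blocks, and Prdx1 and Kdm5c without centring. With centring within blocks, 1 cell cycle gene and 1 bile duct marker were called higher. With array medians, none of 26 cell cycle and DNA replication genes was called. Nor was any of 5 genes of nucleotide metabolism, 3 p53 targets or 10 matrix genes. At an unadjusted p under 0.05 in limma, 3, 1, 0 and 1 genes of these lists were higher and 0, 0, 0 and 1 lower. At that threshold 9.05% of all genes were higher and 14.1% lower.

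**Figure D4:**
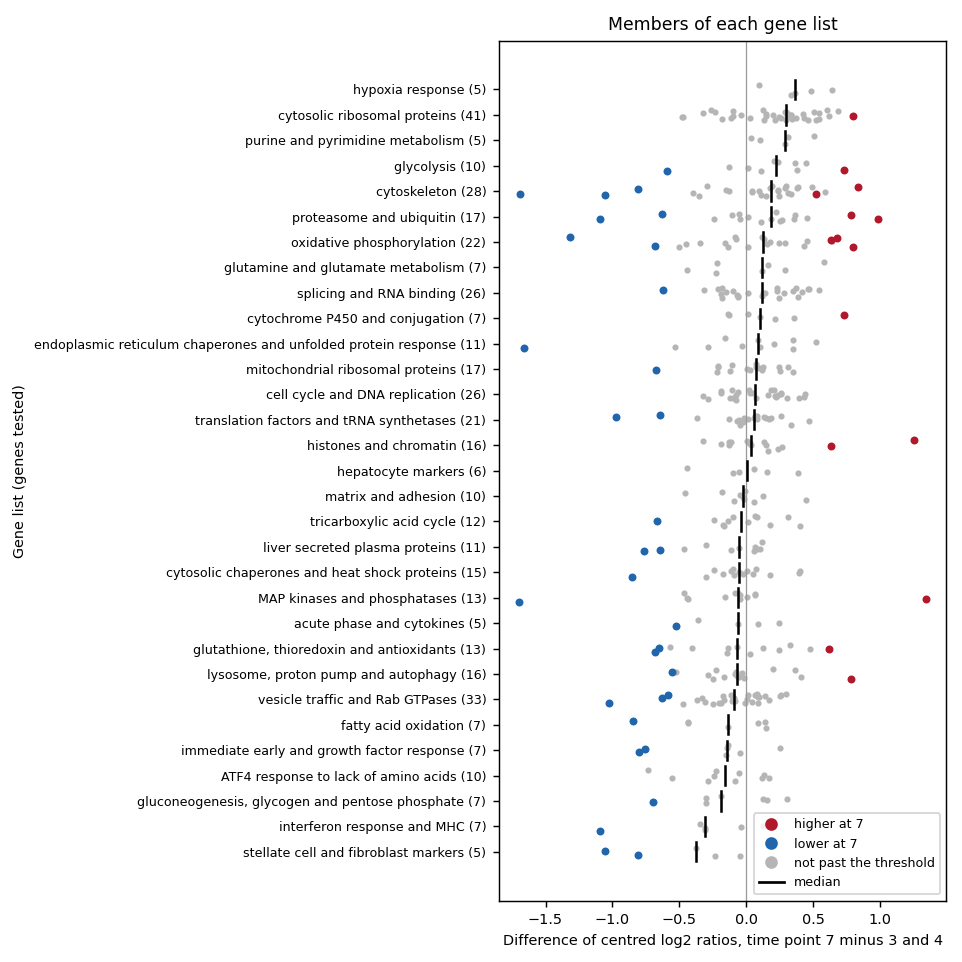
Difference of centred log2 ratios, time point 7 minus time points 3 and 4, for each tested gene of the lists with 5 or more tested members; a black bar marks the list's median, red points are genes called higher and blue points genes called lower. Called genes of opposite direction share a list in oxidative phosphorylation, proteasome and cytoskeleton, and the list medians run from -0.37 to 0.37.

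The lower genes lay further from time points 1, 2, 8 and 9 at time point 7 than at 3 and 4. Their median ratio was 0.11 at time points 1 and 2, 0.16 at 3 and 4, -0.72 at 7 and 0.01 at 8 and 9. In 188 of 223 lower genes with enough values (84.3%), both values of time point 7 lay below all values of time points 1, 2, 8 and 9, which were not used in the comparison, against 9.72% of all 3435 genes. Time points 3 and 4 lay above all of those values in 5 of the 223 (2.24%), against 0.67% of all genes. The higher genes lay away from time points 1, 2, 8 and 9 both at 7 and at 3 and 4. Their medians were -0.14 at time points 1 and 2, -0.37 at 3 and 4, 0.34 at 7 and -0.09 at 8 and 9. Time point 7 lay above all values of time points 1, 2, 8 and 9 in 26 of 53 higher genes (49.1%). The share over all genes was 5.01%. Time points 3 and 4 lay below all of those values in 6 of the 53 (11.3%), against 0.70% of all genes. Time points 3 and 4 have 3 or 4 values and time point 7 has 2, so these shares do not compare directly. The called genes were chosen by their values at time point 7 and at 3 and 4. Their medians there, and a share above that of all genes, follow in part from the choice.

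On the first array of time point 6, the lower genes had a median of -0.36, the lowest of the 14 arrays outside the comparison, and the higher genes one of 0.03, below the 0.12 and 0.085 of the second array of time point 10 and of time point 11. Of the lower genes with a value there, 139 of 196 (70.9%) were below all their values at time points 3 and 4, against 38.9% of all genes. Of the higher genes, 42 of 57 (73.7%) were above all of them, against 24.6%. Of the lower genes, Phactr3, for example, was at -1.08 on that array. Such counts were not made for the other arrays. The called genes were chosen in part by their values at 3 and 4, which raises both shares. The higher genes had a median of -0.37 at 3 and 4, so values near the array median tend to lie above those. Their count thus does not by itself set this array apart. The second array of time point 6 gave a median of -0.03 over 60 lower genes.

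**Figure D5:**
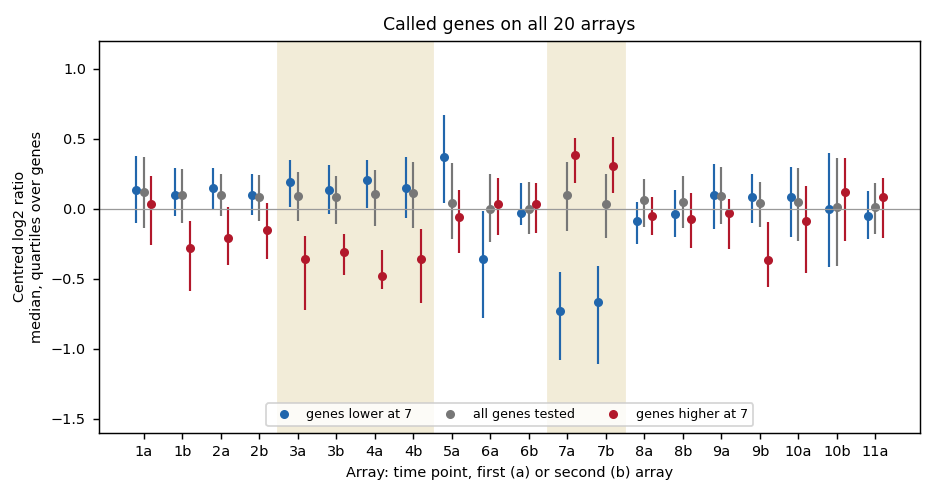
Median (point) and quartiles (line) of the centred log2 ratio on each of the 20 arrays for the 225 lower genes (blue), the 68 higher genes (red) and all genes tested (grey), with time points 3, 4 and 7 shaded. The lower genes are near 0.1 to 0.2 at time points 1 to 4, fall to about -0.7 on both arrays of time point 7 and are near 0 from time point 8 on.

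Of the 225 lower genes, 36 were probes without a usable symbol, and 16 such probes, singled out after their values were seen, share a regular place on the array. They are at places 60, 120, 180 and 240 of blocks 27, 28, 31 and 32 of 540 probe numbers. All 16 had a difference below 0, between -1.71 and -0.36, and 14 of them were called lower, where 6.23% of all genes were. Those at place 240 differed by -1.71 to -1.38. At the same places of other blocks, 29 probes were tested, 0 were called lower and 5 higher, and their median was 0.31. Over all genes 1.88% were higher, and the median was -0.01. What the 16 probes hold is not stated in the sources used here, and their part in the count of lower genes is at most 14 of 225. Blocks of probe numbers held 10.1% of the variance of the difference over all probes tested singly, with block medians from -0.19 to 0.16.

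Many genes had no value on one side. Of 15968 genes or unnamed probes, 182 had a value on all 4 arrays of time points 3 and 4 and on neither of time point 7, and 104 had both at time point 7 and none at time points 3 and 4. By the rule on values they were not tested, and the reason a spot was left without a value is not stated in the sources used here.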

How the data were processed

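The deposited values of 20 spotted arrays were taken as log2 ratios, 1 column per array. Per the labels, channel 1 held experimental and channel 2 control RNA. Scale, normalization and the rule for spots without a value are not given in the sources used here. Each array was centred on its median, and probes of 1 symbol were averaged. The platform annotation gave 1 symbol for 14718 of 17280 probes, 1 probe had several and 2562 had none that could be used. The array number limits the precision.

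A gene needed 2 values at time point 7 and 3 at time points 3 and 4. The difference was tested with limma 3.58.1 in R 4.3.3 as 2 groups, with Benjamini-Hochberg adjustment over 3614 genes, after a test on simulated data. Named were the 10 largest called differences each way among genes with a symbol and no overlap, up to 4 called members of each of 37 lists or otherwise its 2 largest, and 5 genes of glutamine supply. Genes outside this rule are marked as such, or are members of a list or promoter set described. Members, lists and rules were chosen with earlier results of these data known. Alternatives changed centring, scaling, the fit, the values needed, the probes, the variance estimate and the arrays used. Whether array numbers pair samples across time points is not stated, and the main fit used no pairing. The difference between first and second array correlated across genes at r = 0.06 for time points 3 and 4. It correlated at -0.11 for 3 and 7 and at -0.29 for 4 and 7.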

Additional observations from a re-analysis of the deposited data

Results flagged for a closer look

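Among 63 named genes with 4 values at time points 3 and 4, the highest or lowest array stood far from the others, by Dixon's criterion for 4 values, in 2. Chance marks about 1 in 20 groups. Ddit3 was at 0.69 on the second array of time point 4 and between 0.25 and 0.315 on the other 3. Eif2s2 was at -0.53 on the same array and between -0.055 and -0.02 on the others.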

How the results depend on the processing

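The 225 lower and 68 higher genes became 114 and 18 with a mean per time point over 20 arrays. Higher genes were 144 over the 18 arrays without the second of time points 6 and 10, and 139 with centring in blocks of 540 probe numbers. The latter changed the count of called members in 12 of 37 lists, in 7 of them by 1. Leaving out 1 array gave 118 to 287 lower and 20 to 131 higher genes. Under the other settings both counts stayed within 1.5 times. With a block for first and second arrays, which may or may not pair samples, 201 genes were lower and 64 higher. Pgam2, Fbp1, Wars, Atp6v0a1, Gsto1, Vtn, Hp and Kdm5c lost their call in that fit. Against time points 1 to 4, a setting chosen after seeing the data, 266 were lower and 73 higher. Of 57 named genes that were called, 18 kept the call under all 20 settings in which they had enough values, 39 lost it under 1 or more, and 0 changed direction. Of 26 named genes not called, 10 (Shmt1, Cebpb, Ddit3, Fam162a, Egln1, Atic, Orc6, Cdk4, Foxa1 and Krt7) passed under 1 or more settings and 6 had a difference of the other sign under 1 or more, with a limma adjusted p of 0.783 or above in each. Leaving out 1 array gave Fads2 -0.29 to 0.046, Bbc3 -0.42 to 0.0175, Sesn2 -0.18 to 0.0083 and Cd3e -0.14 to 0.11. Against time point 3 alone Fads2 was at 0.065 and Sesn2 at 0.07. Against time point 4 alone Slc3a2 was at 0.0025, Bbc3 at 0.0175 and Aif1 at -0.0875. Against time points 1 to 4 Cd3e was at 0.072. The cause was not tested. Signal over background, which limits single spots, was not used here.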
